A study of Mus musculus with 16 samples.

Results

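The stretch of mouse chromosome 3 from 90.3 to 93.5 Mb (mm9) carries the S100 gene cluster and the epidermal differentiation complex, and its chromatin accessibility was described in medullary thymic epithelial cells (mTECs). Its members were all regions of the deposited table that lie wholly inside these limits, chosen by position and not by signal. There were 265 of them among 250313 regions, each 500 bp long, and the first began at 90301729 and the last ended at 93456452. The assay was ATAC-seq: the transposase Tn5 cuts and tags open DNA, here in 60000 sorted cells per reaction. Thymic cells of 4-week-old C57BL/6 mice were gated as DAPI-, CD45-, EpCAM+, UEA+ and Ly51 low, then split by surface MHC class II into mTEChi and mTEClo. Each sort came from Aire-/-, Aire+/+, Brg1-/- and Brg1+/+ animals, which made 8 groups of 2 libraries. Brg1+/+ libraries are described as NOCRE, so Cre itself may be a further difference from Brg1-/-, and the labels name no Cre driver. Whether the 2 libraries of a group are from separate mice is not labelled, and p-values therefore reflect the spread of these samples alone, which may be technical. No gene annotation of mm9 was used here: the regions were not assigned to genes, and the labelled cell type was not checked by the accessibility of its marker genes.

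The epidermal differentiation complex holds genes that keratinocytes transcribe as they cornify. Loricrin (Lor), involucrin (Ivl) and the small proline-rich (Sprr) and late cornified envelope (Lce) proteins are cross-linked into the cornified envelope, and filaggrin (Flg) bundles keratin filaments. The neighbouring S100 genes encode small calcium-binding proteins, among them S100a8 and S100a9, the subunits of the antimicrobial complex calprotectin of myeloid cells and inflamed epithelium. In the thymus, mTECs transcribe many genes of peripheral tissues, including skin genes, and the cornified Hassall's bodies of the medulla contain keratinocyte proteins. Much of that transcription depends on Aire, a nuclear protein found mainly in mTEChi. Brg1 supplies the ATPase activity of SWI/SNF complexes, which move nucleosomes.

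In the RefSeq gene table, which is on another build (GRCm38.p6) and was used for names and order alone, the genes run from S100a1, S100a13, S100a14, S100a16 and S100a3 to S100a9, then Pglyrp4 and Pglyrp3, which encode peptidoglycan recognition proteins. Lor, Lelp1, the Sprr2 family, Sprr1b, Sprr3, Sprr1a, Sprr4, Ivl, Smcp and the Lce genes with Kprp and Crct1 follow. Crnn, Flg2, Flg, Hrnr, Rptn, Tchh and Tchhl1, which encode fused S100 proteins (an S100 domain joined to a long repeat), precede S100a11 and S100a10. The 250 bases upstream of 4 of these genes are printed as landmarks of the calcium-binding, envelope and fused groups. They come from RefSeq on GRCm38.p6, each read 5′ to 3′ on the strand of its gene and ending just before the annotated start. Capitals mark TATAAA, the core of the TATA box, and TGANTCA. The latter covers the core of AP-1 binding sites but allows any base at N, so matches such as TGAATCA in Flg are looser than that core. Both strands were searched.
S100a9: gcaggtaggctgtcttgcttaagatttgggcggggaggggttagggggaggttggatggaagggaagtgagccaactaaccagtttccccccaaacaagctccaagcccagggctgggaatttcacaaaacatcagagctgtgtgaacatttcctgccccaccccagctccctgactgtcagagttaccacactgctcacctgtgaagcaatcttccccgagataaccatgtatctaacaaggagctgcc
Lor: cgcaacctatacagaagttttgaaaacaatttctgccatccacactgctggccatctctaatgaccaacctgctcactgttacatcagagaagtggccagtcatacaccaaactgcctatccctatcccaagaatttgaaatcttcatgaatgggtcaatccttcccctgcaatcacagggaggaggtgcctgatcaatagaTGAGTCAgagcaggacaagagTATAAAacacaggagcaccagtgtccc
Ivl: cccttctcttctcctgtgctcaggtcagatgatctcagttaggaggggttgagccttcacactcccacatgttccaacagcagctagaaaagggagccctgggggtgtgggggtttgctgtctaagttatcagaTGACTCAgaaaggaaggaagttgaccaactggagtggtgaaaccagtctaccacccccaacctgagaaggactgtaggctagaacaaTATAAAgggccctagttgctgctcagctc
Flg: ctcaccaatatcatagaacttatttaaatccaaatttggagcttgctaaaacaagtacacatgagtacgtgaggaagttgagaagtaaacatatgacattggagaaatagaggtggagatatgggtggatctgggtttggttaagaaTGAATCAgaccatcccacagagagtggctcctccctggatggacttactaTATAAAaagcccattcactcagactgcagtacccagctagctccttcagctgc
The promoters of Lor, Ivl and Flg each hold 1 TGANTCA and 1 TATAAA, with the TATAAA beginning 27 bases before the start in Lor, 29 in Ivl and 53 in Flg. The S100a9 window holds neither. Of the 61 genes on the S100, envelope and fused S100 lists, 56 had a promoter in the RefSeq table, with 60 promoters in all. TGANTCA was found in 18 of the 60 (30.0%), against 6.75% of all 32851 promoters in the table, and TATAAA in 23 (38.3%), against 12.4%. By group, TGANTCA was in 5 of 7 fused S100 promoters (71.4%), 11 of 38 envelope promoters (28.9%) and 2 of 15 S100 promoters (13.3%). TATAAA was in 4 of 7 (57.1%), 16 of 38 (42.1%) and 3 of 15 (20%). A match describes the letters of a window and is no measured site, and paralogs of these families share sequence, so they are not independent.

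Regions were sparser here than in the flanks on both sides, while the density over the whole chromosome was not computed. The stretch held 82.8 regions per Mb, against 205.6 in the 3.2 Mb before it and 140.3 in the 3.2 Mb after it. The 265 regions were of ordinary to slightly raised signal: their median was 16.3 (mean over 16 libraries), against 14.2 for the whole table, and 155 of them (58.5%) were at or above the table's median. A mean above 100 was reached by 8 (3.02%), against 3.84% of all regions. The longest empty interval ran from 91345666 to 91797732, 452065 bp, and only 7 of 12410 gaps between neighbouring regions of the chromosome were as long or longer, itself included. Between such gaps the regions were packed, with a median gap of 2734 bp against 3701 bp over the chromosome. Joined across gaps under 10 kb, they formed 61 runs, of which 27 were single regions. The longest run, chr3:90301729-90478843, held 66 of the 265 regions in 177.1 kb. Several gene families here are nearly identical copies, and the sources used here do not give how the authors placed reads that match several copies.

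By library, the median signal of the 265 regions lay between 14.4 and 24.3 in mTEChi and between 9.65 and 15.9 in mTEClo. Set against the library's own median over all regions, the ratio was between 1.08 and 1.52 in 7 mTEChi libraries, 0.959 in Aire+/+ mTEChi replicate 2, and 1.13 to 1.22 in mTEClo. That library stood apart from its partner: over the members, log2 signal of the 2 libraries of a group correlated with r = 0.475 in Aire+/+ mTEChi, against 0.564 to 0.733 in the other mTEChi groups and 0.781 to 0.828 in the mTEClo groups. These are correlations across regions of libraries from the same table, given as a description. Read depth is unknown, because the deposited values are a scaled signal and not counts. In bulk libraries, fewer open cells and less accessibility per cell cannot be told apart.

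The strongest members were open in both sorts. The highest mean belonged to chr3:93401075-93401574, with 177 to 260 (median 235) over the 8 mTEChi libraries and 185 to 314 (median 245) over the 8 mTEClo libraries. The sorts overlapped there, and the log2 fold change of mTEChi over mTEClo, computed on log2(signal + 1) and averaged over the 4 genotypes, was -0.10 (limma adjusted p = 0.42; the threshold was 0.05). The region at chr3:92931900-92932399 had 147 to 228 (median 188) in mTEChi and 139 to 202 (median 164) in mTEClo, a log2 fold change of 0.20 (adjusted p = 0.16). At chr3:92289725-92290224 the range was 122 to 236 in mTEChi and 114 to 172 in mTEClo (log2 fold change 0.26, adjusted p = 0.125), and at chr3:93309950-93310449 it was 105 to 204 in mTEChi and 104 to 161 in mTEClo (0.13, adjusted p = 0.428). None of these 4 passed the test on the deposited scale. Re-centring every library on its median made the first, chr3:93401075-93401574, a call higher in mTEClo (log2 fold change -0.58, limma adjusted p under 0.05). Quantile normalization left that region at -0.11, without a call. For the last 3, re-centring turned the sign, without a call. On the deposited scale the 16 libraries were alike at the strong end, with a 99th percentile of 213.7 to 217.3 over all regions. Their medians ran from 8.51 to 19.8, and re-centring aligns the medians in place of the strong end. The fifth of the strongest, chr3:90389443-90389942, did differ: it had 114 to 149 (median 126) in mTEChi and 153 to 222 (median 204) in mTEClo, with no overlap (log2 fold change -0.64, SE 0.11, adjusted p = 1.73e-05).

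The sorts were compared to ask where accessibility along the stretch goes with MHC class II level. Over the 4 genotypes, 102 of the 251 tested members differed between mTEChi and mTEClo by limma with Benjamini-Hochberg adjustment over all 225281 tested regions. Of these, 67 were higher in mTEChi (26.7%, against 27.1% of all regions) and 35 were higher in mTEClo (13.9%, against 10.6% of all regions). In either direction the share was 40.6%, against 37.7% of all regions, so the amount of difference was near that of the genome. The other 14 of the 265 members had a mean signal between 5.26 and 7.45, under the 10th percentile of all regions (7.48), and were not tested. Members higher in mTEChi had log2 fold changes of 0.60 to 2.85 (median 1.31) and were weak in mTEClo, with a median signal of 23.8 in mTEChi and 7.67 in mTEClo. Members higher in mTEClo differed by 0.45 to 2.59 (median 1.27) and kept signal in the other sort, with medians of 23.3 in mTEChi and 53.0 in mTEClo. Both sets were chosen by the sort difference, and these levels were not computed for the calls of the whole table. Leaving out Aire-/- mTEChi replicate 1 left 44 members higher in mTEChi and 34 higher in mTEClo. Without Aire+/+ mTEChi replicate 2 the numbers were 59 and 37.

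The balance of directions depended on how the libraries were scaled. Calls higher in mTEChi were 65.7% of the calls in the stretch, against 71.9% in the whole table, 67.9% on chromosome 3, and 72.0% and 71.5% in the flanks before and after it. After quantile normalization the stretch had 31 calls for mTEChi and 57 for mTEClo (35.2%, against 48.4% in the whole table), and after re-centring on the median 25 and 70 (26.3%, against 38.4%). The deposited scale set the median log2 fold change of all regions at 0.33, quantile normalization at -0.02 and re-centring at -0.15. The median of the members was 0.21, -0.14 and -0.27 on these scales, 0.12 below the median of all regions on each. Re-centring could not change this distance, because it shifts all regions of a library by the same amount. Among regions at or above the table's median signal, 40 of 155 members were higher in mTEChi (25.8%, against 33.6% of all such regions) and 32 were higher in mTEClo (20.6%, against 16.4%). Among weaker regions, 27 of 96 members were higher in mTEChi (28.1%, against 19.0% of all such regions) and 3 were higher in mTEClo (3.13%, against 3.29%).

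**Figure D1:**
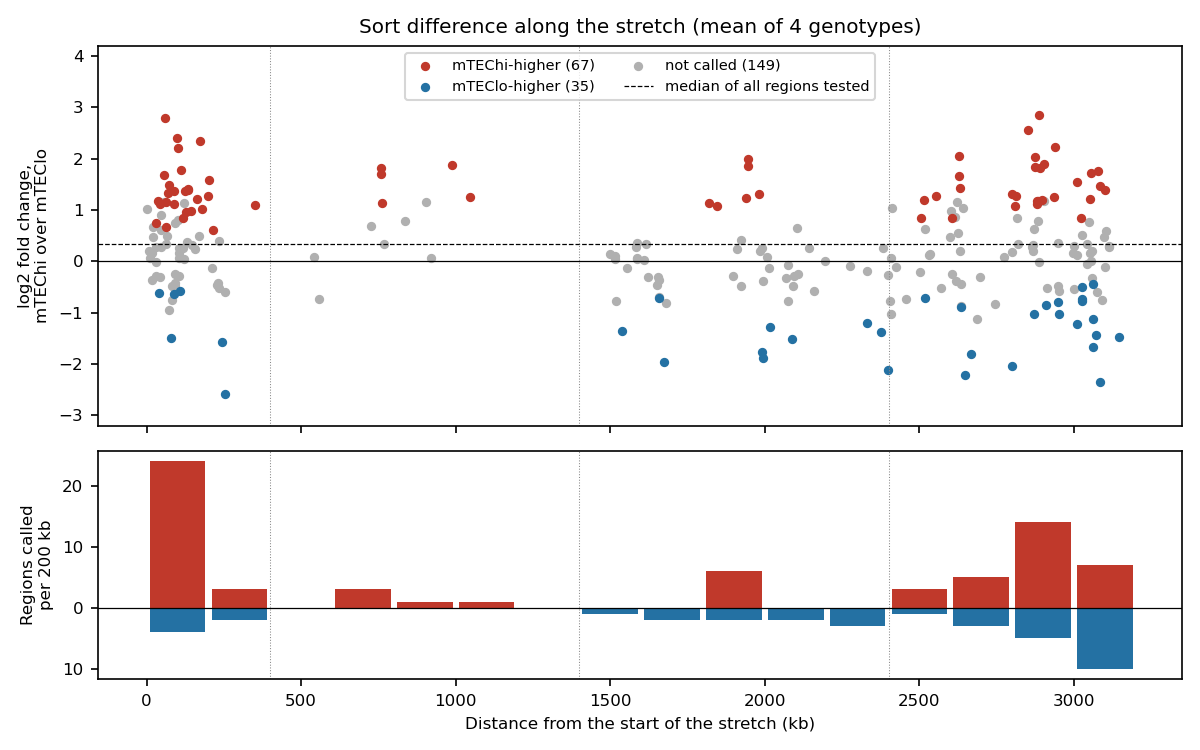
Upper panel: log2 fold change of mTEChi over mTEClo, averaged over the 4 genotypes, for each of the 251 tested regions (points) against distance in kb from the start of the stretch, with the median of all tested regions dashed; lower panel: regions called per 200 kb, higher in mTEChi upwards and higher in mTEClo downwards. Calls higher in mTEChi (67) crowd at the left end and near the right end, where 76 and 107 of the 251 tested regions lie. Calls higher in mTEClo (35) lie mostly right of the empty middle, as do most tested regions.

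A set of 7 regions stood with all 8 mTEChi libraries above all 8 mTEClo libraries at or above the table's median signal. With chr3:90399392-90399891, which is weaker and was named after its values were seen, 8 of the 251 did so (5.15% of all tested regions). The largest difference was at chr3:93185019-93185518, where signal was 30.8 to 141 (median 75.8) in mTEChi and 1.84 to 19.0 (median 10.9) in mTEClo, a log2 fold change of 2.85 (SE 0.33, adjusted p = 4.77e-08). In the same run of 19 regions, chr3:93163950-93211339, 2 more were of this kind. At chr3:93172181-93172680 the values were 76.0 to 142 (median 98.7) in mTEChi and 18.6 to 43.9 (median 27.4) in mTEClo (1.83 on the log2 scale, SE 0.21, adjusted p = 2.52e-08), and at chr3:93202306-93202805 they were 18.0 to 39.4 in mTEChi and 2.70 to 13.5 in mTEClo (1.89, SE 0.32, adjusted p = 2.05e-05). That run held 9 calls higher in mTEChi and 2 higher in mTEClo.

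Of the remaining regions of this kind, a pair lay in the longest run at the left end. At chr3:90472665-90473164 signal was 25.6 to 54.3 (median 48.2) in mTEChi and 0.601 to 18.3 (median 9.06) in mTEClo, and the log2 fold change was 2.35 (SE 0.34, adjusted p = 1.59e-06). At chr3:90401958-90402457 it was 15.5 to 52.8 in mTEChi and 0.515 to 14.1 in mTEClo (2.20, SE 0.36, adjusted p = 1.36e-05). The lowest mTEChi value there stood just above the highest mTEClo value. In the middle of the stretch, chr3:92244185-92244684 had 23.8 to 60.3 (median 40.3) in mTEChi and 5.01 to 21.4 (median 10.0) in mTEClo (1.86, SE 0.30, adjusted p = 1.17e-05). Towards the right end, chr3:93375926-93376425 had 34.9 to 69.3 (median 51.5) in mTEChi and 3.03 to 27.7 (median 15.4) in mTEClo (1.75, SE 0.30, adjusted p = 2.15e-05).

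Regions with all 8 mTEClo libraries above all 8 mTEChi libraries numbered 6 of the 251 (1.93% of all tested regions). The clearest was chr3:90554075-90554574, with 8.54 to 36.3 (median 20.3) in mTEChi and 113 to 171 (median 134) in mTEClo, a log2 fold change of -2.59 (SE 0.21, adjusted p = 5.61e-11). Its highest mTEChi library (36.3) was far below its lowest mTEClo library (113). Nearly as wide a gap was seen at chr3:93384750-93385249, with 13.5 to 54.1 (median 34.3) in mTEChi and 131 to 195 (median 152) in mTEClo (-2.35, SE 0.21, adjusted p = 2.03e-10). At chr3:92697927-92698426 signal was 3.64 to 33.1 in mTEChi and 53.2 to 122 in mTEClo (-2.13, SE 0.27, adjusted p = 2.66e-07), and at chr3:93251094-93251593 it was 31.2 to 51.2 in mTEChi and 67.6 to 110 in mTEClo (-1.03, SE 0.17, adjusted p = 1.24e-05). The mTEChi libraries scattered widely at chr3:92290230-92290729, from 9.12 to 87.3, against 108 to 173 in mTEClo (-1.76, SE 0.29, adjusted p = 1.33e-05). The strong region chr3:90389443-90389942 is the last of the 6. All 13 regions described by the non-overlap of their libraries kept their direction under every alternative run. In the runs on all libraries, including both rescalings, they stayed below a limma adjusted p of 0.05. On removal of a library their direction could not change, because they were chosen for non-overlap. A call was part of the choice too.

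**Figure D2:**
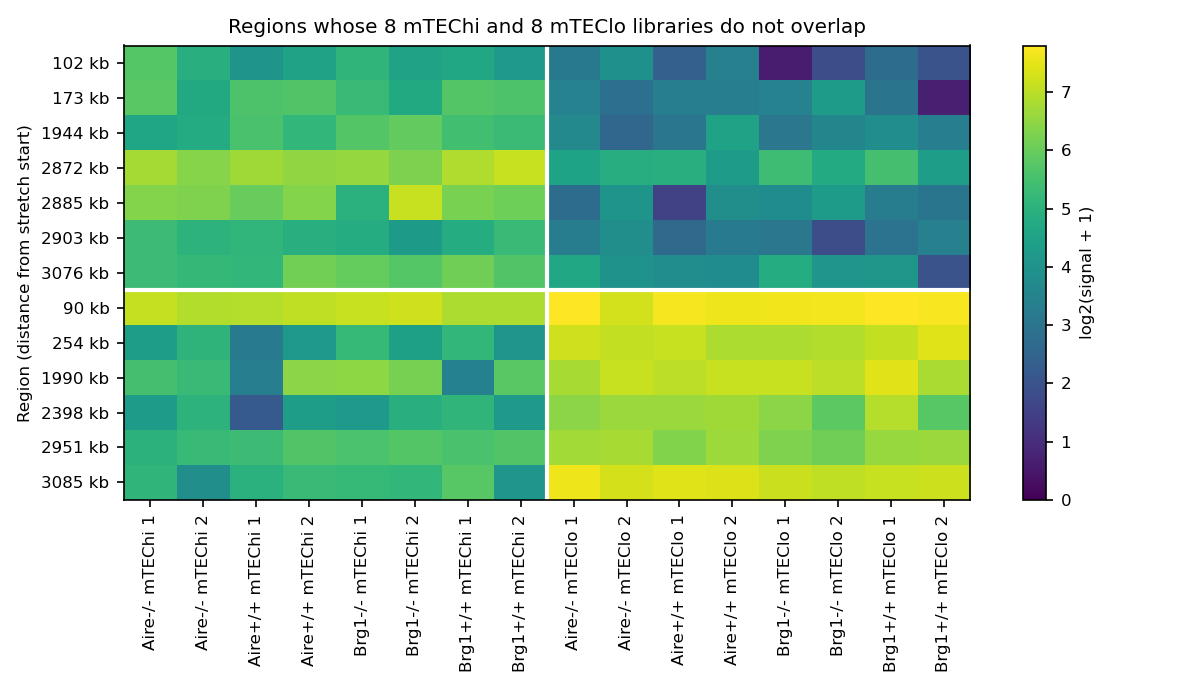
Colour gives log2(signal + 1) of 13 regions (labelled by distance in kb from the start of the stretch) in each of the 16 libraries, with the 8 mTEChi libraries left and the 8 mTEClo libraries right of the white line. The upper 7 regions are brighter in every mTEChi library than in any mTEClo library and the lower 6 are dimmer. They were chosen for this lack of overlap.

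Some regions of opposite direction lay close together, though most neighbours had the same direction. Of the 101 pairs of successive calls along the stretch, 62 were within 10 kb, 41 of them in the same direction and 21 in opposite directions (33.9%, against 23.1% of such pairs in the whole table, untested). At chr3:93099484-93099983 signal was higher in mTEChi (1.33 to 22.8, against 0.357 to 10.6 in mTEClo; log2 fold change 1.31, adjusted p = 0.0474), and 522 bp further on, at chr3:93100506-93101005, it was lower in mTEChi (1.84 to 24.2, against 15.3 to 68.4 in mTEClo; -2.04, adjusted p = 8.75e-06). The region chr3:93172181-93172680, among the clearest of those higher in mTEChi, follows 672 bp after chr3:93171009-93171508, which had 28.4 to 94.3 (median 44.5) in mTEChi and 79.1 to 128 (median 96.1) in mTEClo (-1.03, SE 0.19, adjusted p = 6.91e-05). Likewise chr3:93383276-93383775, with 21.7 to 66.9 (median 55.9) in mTEChi and 10.7 to 30.3 (median 19.1) in mTEClo (1.46, adjusted p = 7.27e-05), lies 974 bp before the strongly opposite chr3:93384750-93385249. These pairs were picked as the closest after their values were seen. Such neighbours were also unequal without opposition: the strong region chr3:92289725-92290224 showed no call, while the adjacent chr3:92290230-92290729 was among the clearest mTEClo regions.

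Along the stretch, the calls were spread unevenly. The limits of the 4 parts compared here were drawn after the values were seen, and no test was made. From 90.3 to 90.7 Mb, 27 of 76 tested regions were higher in mTEChi and 6 in mTEClo (median log2 fold change 0.44). The sparse part from 90.7 to 91.7 Mb held 5 calls higher in mTEChi and 0 higher in mTEClo among 12 regions (median 0.97). There, chr3:91287294-91287793 had 17.7 to 81.0 in mTEChi and 5.01 to 18.4 in mTEClo (1.88 on the log2 scale, SE 0.31, adjusted p = 1.12e-05). From 91.7 to 92.7 Mb, 6 of 56 were higher in mTEChi and 10 in mTEClo (median -0.16), and from 92.7 to 93.5 Mb, 29 of 107 and 19 (median 0.21). Rescaling kept the order but not the balance. Quantile normalization gave, from left to right, 13 and 12, 3 and 1, 2 and 13, and 13 and 31 calls higher in mTEChi and in mTEClo. Re-centring gave 8 and 15, 3 and 1, 2 and 18, and 12 and 36. The shares of all regions were 27.1% and 10.6% on the deposited scale and 16.5% and 17.5% after quantile normalization. After re-centring they were 13.7% and 21.9%, so the whole table also held more calls higher in mTEClo on both rescalings. The part from 91.7 to 92.7 Mb had more calls higher in mTEClo on all 3 scales, and the left end had nearly equal numbers after quantile normalization (13 and 12) and more higher in mTEClo after re-centring (8 and 15).

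The level of each part within each library, as median log2(signal + 1) minus the library's median over all tested regions, does not depend on a shift between libraries. It is the level on the re-centred scale. For 91.7 to 92.7 Mb it was -0.68 to 0.21 in the 8 mTEChi libraries and 0.10 to 0.71 in the 8 mTEClo libraries, and only Brg1+/+ mTEChi replicate 2 (0.21) stood above the lowest mTEClo library. For 90.7 to 91.7 Mb it was -0.74 to 0.18 in mTEChi and -0.67 to -0.17 in mTEClo, a wide overlap. For 92.7 to 93.5 Mb the sorts overlapped almost wholly, with 0.02 to 0.63 in mTEChi and 0.08 to 0.54 in mTEClo. For 90.3 to 90.7 Mb it was -0.48 to 0.55 in mTEChi and -0.17 to 0.35 in mTEClo. The lowest of these, -0.48, was Aire+/+ mTEChi replicate 2. Without the subtraction, the sorts overlapped widely from 91.7 to 92.7 Mb. There, median log2(signal + 1) was 3.43 to 4.27 in mTEChi and 3.55 to 4.62 in mTEClo.

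**Figure D3:**
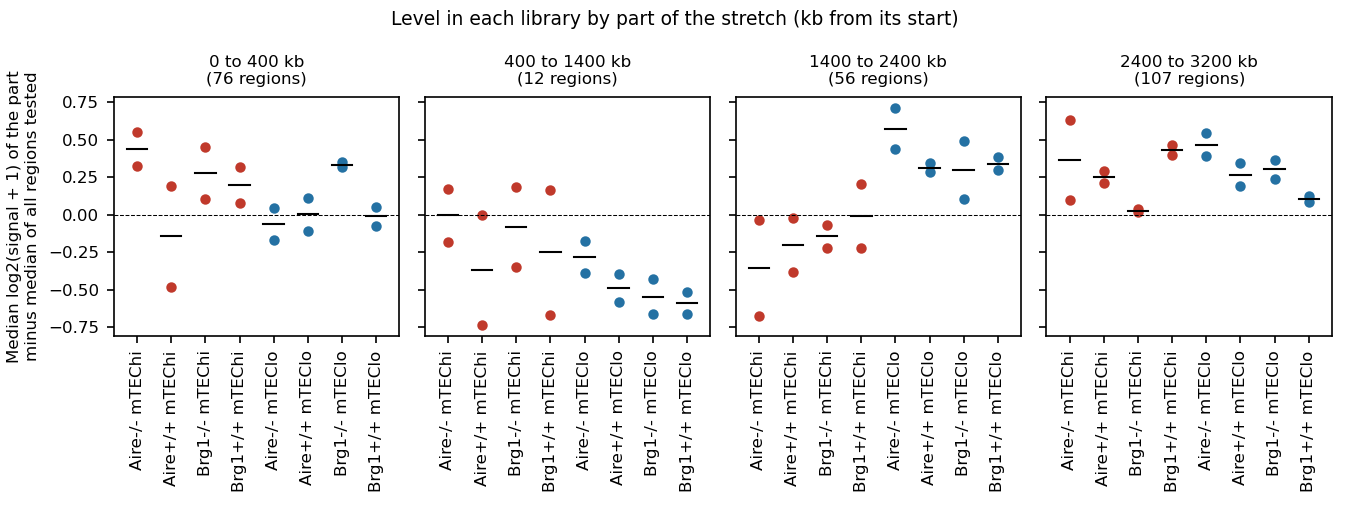
Each point is a library: the median log2(signal + 1) of the tested regions in a part of the stretch minus the library's median over all tested regions, with a bar at each group's mean, mTEChi in red and mTEClo in blue. Between 1400 and 2400 kb the mTEClo libraries (0.10 to 0.71) stand above all mTEChi libraries but Brg1+/+ mTEChi replicate 2 (0.21). Without the subtraction the sorts overlap widely there (3.43 to 4.27 in mTEChi, 3.55 to 4.62 in mTEClo).

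Within single genotypes the same comparison rests on 2 libraries against 2. Aire-/- mice had 13 members higher in mTEChi and 15 in mTEClo (7.15% and 4.22% of all regions). Aire+/+ mice had 9 and 13 (5.14% and 3.65% of all regions). Brg1-/- mice had 17 and 6 (6.61% and 1.5% of all regions), and Brg1+/+ mice had 11 and 12 (9.21% and 3.75% of all regions). The share of the 251 members called higher in mTEChi was below that of all regions in Aire-/-, Aire+/+ and Brg1+/+ and near it in Brg1-/-, and the share called higher in mTEClo was above it in each. Scaling moved the balance here too: in the order Aire-/-, Aire+/+, Brg1-/- and Brg1+/+, quantile normalization gave 10 and 20, 6 and 20, 1 and 8, and 5 and 13 calls higher in mTEChi and in mTEClo. The shares of all regions on that scale were 6.39% and 5.87%, 4.57% and 5.63%, 1.51% and 2.75%, and 3.25% and 4.24%. Re-centring gave 6 and 22, 4 and 20, 2 and 24, and 6 and 23 members, against 4.63% and 6.15%, 2.93% and 5.86%, 1.38% and 6.23%, and 4.04% and 7.48% of all regions, so the whole table turned towards mTEClo as well. Of the 67 members higher in mTEChi over all genotypes, 58 had that sign in each of the 4, and of the 35 higher in mTEClo, 31 did. These members were called on the mean of the same 4 differences, so the choice itself favoured agreement in sign. The share among all called regions was not computed. The calls within a genotype fell with single libraries left out, except without Aire+/+ mTEChi replicate 1, where the members' count did not fall. Those of the whole table fell in each of these fits. The 28 calls in Aire-/- became 14, 15, 14 and 10 without mTEChi replicate 1, mTEChi replicate 2, mTEClo replicate 1 and mTEClo replicate 2 (4.17%, 5.36%, 5.40% and 4.00% of all regions). The 23 in Brg1-/- became 13, 6, 10 and 8 in the same order (4.30%, 2.64%, 2.91% and 3.56% of all regions). Likewise the 22 in Aire+/+ became 11 and 7 without mTEClo replicate 1 and mTEClo replicate 2 (4.82% and 2.80% of all regions). The 23 in Brg1+/+ became 13, 13 and 12 without mTEChi replicate 2, mTEClo replicate 1 and mTEClo replicate 2 (6.54%, 6.30% and 5.20% of all regions).

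In each of the 4 genotypes, 1 member passed as higher in mTEChi (1.34% of all regions did) and 3 as higher in mTEClo (0.594% of all regions). Of these 4, 1 lay from 90.3 to 90.7 Mb and 3 from 92.7 to 93.5 Mb. The region chr3:90554075-90554574 had log2 fold changes of -2.43 in Aire-/-, -3.25 in Aire+/+, -2.04 in Brg1-/- and -2.62 in Brg1+/+, with adjusted p between 1.01e-05 and 0.00325. Its Aire+/+ libraries held 8.54 and 17.7 in mTEChi, against 141 and 113 in mTEClo. At chr3:93384750-93385249 the values were -2.97, -2.27, -1.92 and -2.24 in the same order of genotypes, and Aire-/- had 33.6 and 13.5 in mTEChi, against 195 and 157 in mTEClo. At chr3:92948511-92949010, named because it passed in each genotype, they were -1.75, -2.96, -1.83 and -2.34, and its libraries ran from 11 to 57.9 in mTEChi and 53.8 to 178 in mTEClo. Higher in mTEChi in each genotype was chr3:93172181-93172680 alone, at 1.88, 2.01, 1.34 and 2.10. Leaving out 1 library of the genotype ended at least 1 of the 4 genotype calls of each region. For chr3:90554075-90554574 it was the Brg1-/- call, without mTEChi replicate 2 (-1.66, adjusted p = 0.0662), and for chr3:93384750-93385249 the Brg1-/- call, without mTEClo replicate 1 (-1.85, adjusted p = 0.0509). For chr3:92948511-92949010 it was the Aire-/- call without mTEChi replicate 1 (adjusted p = 0.239) or mTEClo replicate 2 (0.232) and the Brg1-/- call without mTEChi replicate 1 (0.119) or mTEClo replicate 1 (0.225). For chr3:93172181-93172680 the Brg1-/- call ended without any of its 4 libraries (adjusted p 0.0692 to 0.252), and the others ended without Aire-/- mTEChi replicate 1 (0.0607), Aire+/+ mTEClo replicate 2 (0.0592) or Brg1+/+ mTEClo replicate 2 (0.0541).

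**Figure D4:**
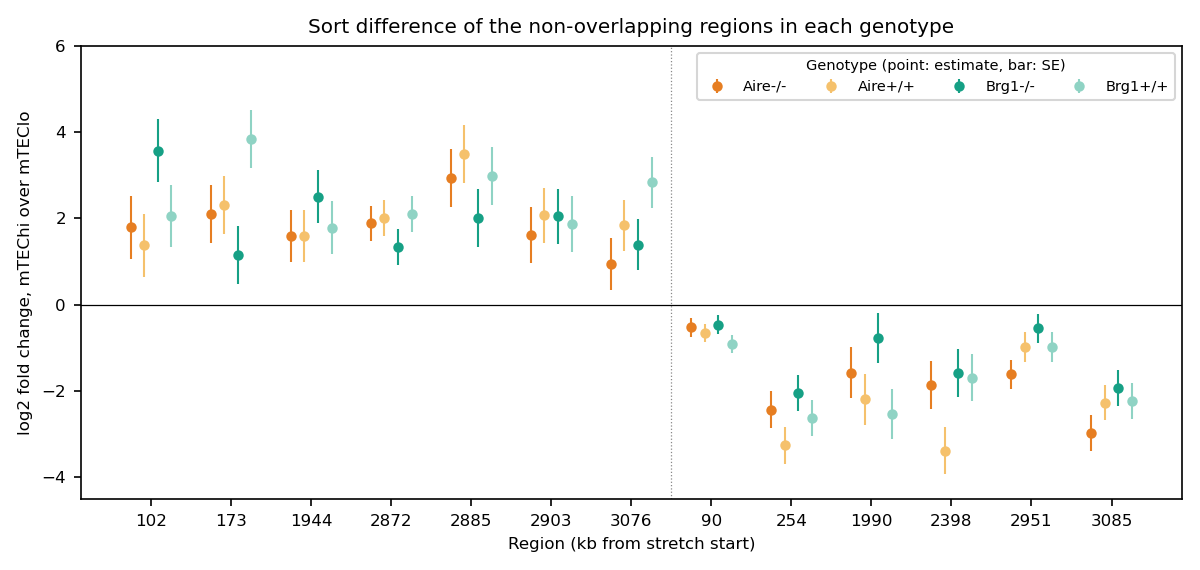
Log2 fold change of mTEChi over mTEClo in each genotype (points; bars are the SE, 2 libraries a sort) for the 13 regions whose 16 libraries do not overlap by sort, labelled by distance in kb from the start of the stretch. All 4 genotypes lie above 0 in the 7 regions on the left and below 0 in the 6 on the right. This agreement in sign follows from the choice of regions without overlap.

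The largest differences of a single genotype included regions that are near 0 in a sort. At chr3:90358839-90359338, Aire-/- had 54.7 and 61.0 in mTEChi, against 1.80 and 0 as listed for mTEClo (5.14 on the log2 scale, SE 0.89, adjusted p = 0.000263). At chr3:92244719-92245218, Aire+/+ had 25.3 and 26.2 in mTEChi, against 1.21 and 0 as listed for mTEClo (4.17, SE 0.88, adjusted p = 0.00229). At chr3:92926776-92927275 the log2 fold change in Brg1-/- was 3.62 (SE 0.91, adjusted p = 0.0126), and at chr3:90472665-90473164 it was 3.84 in Brg1+/+ (SE 0.67, adjusted p = 0.00031). Of the 40 calls of regions named by genotype, 27 were lost without 1 or another library of that genotype and 13 were kept without any 1 of them.

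Loss of Aire or Brg1 was compared within each sort to ask whether accessibility of the skin gene cluster depends on either protein. By limma with Benjamini-Hochberg adjustment, 0 of the 251 members changed on Aire loss in mTEChi (0.0209% of all regions), 0 on Aire loss in mTEClo (0%), 0 on Brg1 loss in mTEChi (0.0257%) and 0 on Brg1 loss in mTEClo (0.000444%). At an unadjusted p under 0.05 the members numbered 36 (14.3% of the 251), 5, 30 and 19 in the same order. The shares of all regions at that p were 10.2%, 2.5%, 10.7% and 6.15%. With 2 libraries a group and so few calls in the whole table, these counts do not show that accessibility was equal. No interaction with the sort was called either: 0 members for Aire loss (0.000444% of all regions) and 0 for Brg1 loss (0%), with 12 and 15 at an unadjusted p under 0.05 (5.15% and 7.09% of all regions).

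On Aire loss in mTEChi the members' log2 fold changes had a median of 0.12 and ran from -1.43 to 1.74 (5th to 95th percentile), against a median of -0.0015 and -1.60 to 1.46 for all regions. Both Aire-/- mTEChi libraries lay above both Aire+/+ mTEChi libraries in 56 members (22.3%, against 18.9% of all regions) and below them in 29 (11.6%, against 18.6%). The members thus leaned towards higher signal in Aire-/- mTEChi, with 56.2% of them positive against 49.9% of all regions, and no member passed the test. The size of this lean depended on single libraries. The members' median was 0.016 without Aire-/- mTEChi replicate 1 and 0.35 without Aire-/- mTEChi replicate 2. It was 0.069 without Aire+/+ mTEChi replicate 1 and 0.038 without Aire+/+ mTEChi replicate 2. The median of all regions was below that of the members in each of these fits. On Aire loss in mTEClo with all libraries, the median was 0.01 against 0.00045. There, 40 members lay above (15.9%, against 16.8% of all regions) and 42 below (16.7%, against 17.1%). On Brg1 loss in mTEChi the median was 0.14 against 0.22, with 56 above (22.3%, against 24.8% of all regions) and 30 below (of 251, against 11.7% of all regions). In mTEClo it was 0.05 against 0.05, with 62 above (24.7%, against 20.6%) and 42 below (16.7%, against 18.4%). Along the stretch, the median on Aire loss in mTEChi was 0.50 over the 76 regions from 90.3 to 90.7 Mb, 0.29 over the 12 from 90.7 to 91.7 Mb, -0.17 over the 56 from 91.7 to 92.7 Mb and 0.07 over the 107 from 92.7 to 93.5 Mb. Relative to the library's own median, the part from 90.3 to 90.7 Mb stood at 0.55 and 0.32 in the Aire-/- mTEChi libraries, against 0.19 and -0.48 in the Aire+/+ mTEChi libraries. In the mTEClo libraries of the Aire line it was 0.04 and -0.17 in Aire-/-, against -0.11 and 0.11 in Aire+/+. The gap in mTEChi was at least as large between the 2 Aire+/+ libraries as between the genotypes, and the part played by Aire+/+ mTEChi replicate 2 was not tested.

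**Figure D5:**
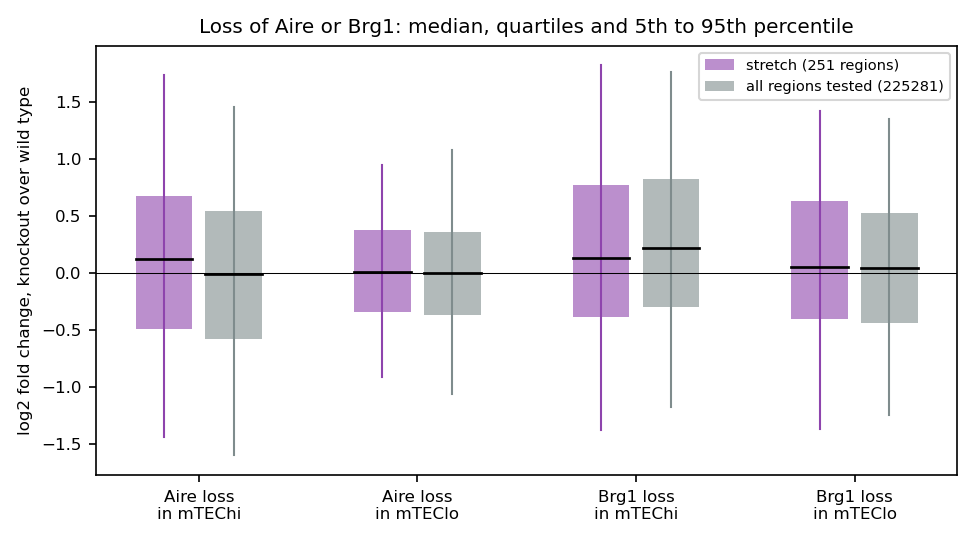
Log2 fold changes of knockout over wild type for the 251 tested regions of the stretch (left of each pair) and all 225281 tested regions (right); lines mark medians, boxes the quartiles, whiskers the 5th and 95th percentiles. The median of the stretch lies above that of all regions for Aire loss in mTEChi (0.12 against -0.0015) and below it for Brg1 loss in mTEChi (0.14 against 0.22). When single mTEChi libraries of the Aire line were left out, the stretch's median for Aire loss in mTEChi ran from 0.016 to 0.35.

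Members with the smallest p on loss of Aire did not pass. In mTEChi, chr3:93100506-93101005 had 24.2 and 23.2 in Aire-/-, against 3.95 and 1.84 in Aire+/+ (2.72 on the log2 scale, SE 0.65, adjusted p = 0.127). In mTEClo the same region had 52.2 and 68.4 in Aire-/-, against 34.8 and 49.2 in Aire+/+. The mTEClo level was the higher of the sorts in both genotypes. At chr3:93210840-93211339 the Aire-/- mTEChi libraries had 66.0 and 54.3, against 3.64 and 45.3 in Aire+/+ mTEChi (2.05, adjusted p = 0.242), so the difference rested on 1 Aire+/+ library. At chr3:90531661-90532160 signal was 10.9 and 6.11 in Aire-/- mTEChi, against 31.2 and 41.1 in Aire+/+ mTEChi (-2.00, SE 0.67, adjusted p = 0.293). It was 12.4 and 4.85 in Aire-/- mTEClo, against 21.6 and 47.4 in Aire+/+ mTEClo (-1.90, adjusted p = 1.0). Aire+/+ libraries were thus above Aire-/- libraries in both sorts, but they were also above both Brg1+/+ libraries in mTEChi (9.67 and 6.81). Leaving out Aire+/+ mTEChi replicate 1 brought 4 members past the threshold in mTEChi (1.59%, against 0.996% of all regions in that fit), at chr3:90419348-90419847 (1.70), chr3:92707487-92707986 (4.21), chr3:93100506-93101005 (3.12) and chr3:93171009-93171508 (-1.64). Leaving out replicate 2 in its place brought 1 other (0.0426% of all regions), chr3:93210840-93211339 (3.71). These fits assume that the lone Aire+/+ library varies like the other groups.

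On loss of Brg1, too, the members with the smallest p did not pass. At chr3:90340959-90341458 signal was 9.12 and 11.8 in Brg1-/- mTEChi, against 40.8 and 28.2 in Brg1+/+ mTEChi (log2 fold change -1.62, SE 0.42, adjusted p = 0.164), below all 4 mTEChi libraries of the Aire line (47.4 to 69.6). In mTEClo the values were 38.3 and 37.1 in Brg1-/-, against 54.5 and 47.7 in Brg1+/+. The strong region chr3:92934336-92934835 had 21.5 and 40.9 in Brg1-/- mTEChi, against 63.1 and 86.1 in Brg1+/+ mTEChi (-1.28, SE 0.37, adjusted p = 0.204), and 81.9 and 93.0 in Brg1-/- mTEClo, against 88.3 and 71.5 in Brg1+/+ mTEClo. In the other direction, chr3:92854090-92854589 had 39.3 and 37.3 in Brg1-/- mTEChi, against 11.8 and 2.84 in Brg1+/+ mTEChi (2.49, SE 0.71, adjusted p = 0.202). In mTEClo, chr3:90472665-90473164 had 10.0 and 18.3 in Brg1-/-, against 6.99 and 0.601 in Brg1+/+ (2.03, adjusted p = 0.663), and chr3:90383423-90383922 had 2.84 and 15.9 in Brg1-/-, against 28.4 and 44.5 in Brg1+/+ (-2.18, adjusted p = 0.654). No Brg1 call appeared when any library was left out.

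The wild types of the lines were set against each other as a background for these comparisons. In mTEChi, 0 members differed between Aire+/+ and Brg1+/+ (0.156% of all regions), and 27 did at an unadjusted p under 0.05 (10.5% of all regions). The median log2 fold change was 0.06, against 0.18 for all regions. In mTEClo, 0 members differed (0.0368% of all regions), 12 did at an unadjusted p under 0.05 (7.4% of all regions), and the median was 0.40 against 0.42. Both Aire+/+ mTEClo libraries lay above both Brg1+/+ mTEClo libraries in 98 members (39.9% of all regions) and below them in 14 (6.19% of all regions). The members' median was thus near that of all regions in mTEClo and below it in mTEChi. Without Aire+/+ mTEChi replicate 1, 2 members were called in mTEChi (0.797%, against 0.714% of all regions in that fit), chr3:92707487-92707986 (-4.11) and chr3:93321214-93321713 (-2.82), and without replicate 2, 1 was (0.125% of all regions), chr3:93210840-93211339 (-2.93). These comparisons share the Aire+/+ and Brg1+/+ libraries with the comparisons of loss.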

How the data were processed

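The authors deposited a table of signal values for 250313 regions in 16 ATAC-seq libraries, and each column matched the description of 1 library. The submitters' processing notes name Bowtie2, MACS2 and mm9 and give no versions. The sources used here do not give the definition of the regions, any Tn5 shift, the handling of duplicates or the scaling of libraries. The deposited signal is not a count, so depth is unknown, no counting interval was given and no count model was used. Starts were read as counted from 0 and are printed counted from 1.

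Signal was analysed as log2(signal + 1), a scale that understates the fold change of weak regions. Regions with a mean under the 10th percentile (7.48) were removed (25032), which kept 225281. limma 3.58.1 in R 4.3.3 fitted 8 group means over all 16 libraries (8 residual degrees of freedom, trend and robust variances), two-sided, with Benjamini-Hochberg adjustment over all regions in each of 13 comparisons and a threshold of 0.05. The procedure was tested on simulated data. Regions were named by fixed rules: the 5 highest means, per direction up to 10 calls of the averaged sort without overlap of libraries and with at least the median signal, per other comparison and direction the 5 largest calls (or, with none, the 2 smallest p), and the highest mean per 200 kb. The text gives a subset. The stretch, the lists and the rules were chosen with earlier results of these data known. RefSeq promoters (GRCm38.p6) were matched by symbol. Alternatives were other pseudocounts (0.5, 5), filters, quantile normalization, re-centring, fewer libraries and a replicate block.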

Additional observations from a re-analysis of the deposited data

How the results depend on the processing

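Calls of the averaged sort stayed within 78 to 101 when each library was left out and within 74 to 107 under the other alternatives (102 in the text). The 23 calls in Brg1-/- became 15 with a filter at the 50th percentile, 9 after quantile normalization and 15 with only the Brg1 libraries; the fit had fewer regions or libraries in the first and last of these, and for quantile normalization the cause was not tested. Leaving out each library gave 10 to 15 calls in Aire-/-, 7 to 23 in Aire+/+, 6 to 13 in Brg1-/- and 12 to 17 in Brg1+/+, 0 to 4 for Aire loss in mTEChi, 0 to 2 between the wild types in mTEChi, and 0 in the other comparisons. Of 1483 values of named regions under an alternative, 1355 kept their direction and side of the threshold, 103 lost a call, 13 gained it and 12 changed sign, the last all in regions not called in the averaged sort. Re-centring gave -0.28 at chr3:92931900-92932399, -0.22 at chr3:92289725-92290224, -0.35 at chr3:93309950-93310449 and -0.44 at chr3:91884730-91885229, where quantile normalization gave -0.20. That region, at 0.04 with all libraries, gave -0.017 to 0.091 when each library was left out; chr3:91954562-91955061 gave -0.64 to 0.016, positive only without Aire+/+ mTEChi replicate 2, and chr3:92314619-92315118 gave -0.32 to 0.066, positive only without Aire-/- mTEChi replicate 2. Same-numbered libraries of a line did not deviate together (r from -0.018 to 0.034), so the numbers were not read as pairs; with the replicate number as a block the averaged sort gave 105 calls, the genotypes 28, 22, 23 and 25 (Aire-/-, Aire+/+, Brg1-/-, Brg1+/+), and loss of Aire or Brg1 0. A fit on only the libraries of a line does not apply to the averaged sort or to the wild types, which use both lines. The scaling of the libraries and the unknown depth limit statements on direction, and 2 libraries a group limit what a count of 0 can show.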
